A study of Mus musculus with 8 samples.

Results

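The genes that encode the nuclear subunits of respiratory complexes II to V were taken by their platform symbols: Sdha to Sdhd for complex II, Uqcr genes for complex III, Cox4 to Cox8 genes for complex IV and Atp5 genes for complex V. The symbols matched 47 of the 22180 genes that had a probe set with exactly 1 symbol, and 43 of the 47 were bright enough to be tested, among 15086 tested genes. By complex, 4 of 4 genes of complex II, 7 of 8 of complex III, 15 of 17 of complex IV and 17 of 18 of complex V were tested. The 4 others were the pseudogenes Uqcrh-ps1 and Atp5c1-ps and the tissue-restricted isoform genes Cox7b2 and Cox8c, with means of at most 3.19 (log2) in either group. A further 2 genes with such symbols lay only on probe sets shared with other symbols and are not used here.

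Hearts of 4 CITED4 knockout mice were compared with hearts of 4 floxed control mice, all male and of strain C57Bl6N. The CITED4 protein binds no DNA itself and acts on transcription through the co-activators CBP and p300. Every mouse in both groups had undergone transverse aortic constriction, a ligature around the aortic arch against which the left ventricle must pump, 1 week before the heart was taken. Total RNA of the frozen heart was hybridised to 1 Affymetrix array per mouse, and all values below are log2 signals. No unoperated heart enters the comparison, and the sources used here name neither the Cre line, nor the cells it acts in, nor whether the controls carry Cre. Nothing in the labels gives litters, operation days or array batches, so no p-value here takes account of them. A p-value weighs a difference against the variation among these 8 samples only, and 4 arrays a group limit the precision.

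In the inner mitochondrial membrane, complex II (succinate dehydrogenase) passes electrons from succinate to coenzyme Q, complex III passes them from coenzyme Q to cytochrome c, and complex IV (cytochrome c oxidase) passes them to oxygen. Complexes III and IV pump protons, and complex V (ATP synthase) lets them flow back to make ATP. Heart muscle depends on this chain for most of its ATP, and it uses its own isoforms of several complex IV subunits. The subunits encoded by mitochondrial DNA are not among the members.

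The labels were checked on the deleted gene. Cited4 had 5.26, 5.15, 4.83 and 5.02 in knockout hearts 1 to 4, against 5.89, 5.76, 6.05 and 6.22 in control hearts 1 to 4. The groups did not overlap, the difference was -0.91 ± 0.12 (SE), and the exact two-sided permutation p was 0.0286, the smallest that 70 assignments allow. Adjusted over all genes by limma its p was 0.277. The cardiomyocyte genes Myh6, Tnnt2, Tnni3 and Actc1 lay at or above the 99.7th percentile of tested genes. Correlations between arrays ran from 0.979 to 0.988.

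Most subunit genes were lower on average in knockout hearts, by small amounts, and none passed the threshold of 0.05 after adjustment over all genes. Of the 43 tested members 37 were lower and 6 higher, while 48.8% of all tested genes were lower. The median difference was -0.15 over the members and 0.00 over all tested genes. At an unadjusted limma p under 0.05, 9 members were lower and 0 higher, which is 20.9% of them. Among all tested genes 5.61% were lower and 5.64% higher at that p. With Benjamini-Hochberg adjustment 0 members were called, as were 0% of all tested genes (1697 had an unadjusted p under 0.05), and the members' adjusted p-values ran from 0.421 to 0.982. The count of 9 depended on single hearts: it was 3 without knockout replicate 1, 24 without knockout replicate 2 and 4 without knockout replicate 4. The share of all tested genes at that p, 11.2% with every heart kept, was then 6.54%, 15.8% and 6.99%. The count was 3 without control replicate 2, 4 without control replicate 3 and 4 without control replicate 4. Beside these stood 6.97%, 7.36% and 7.68% of all tested genes, so part of the movement was shared by all genes. In whole tissue, fewer cells of a type and less RNA per cell cannot be told apart.

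**Figure D1:**
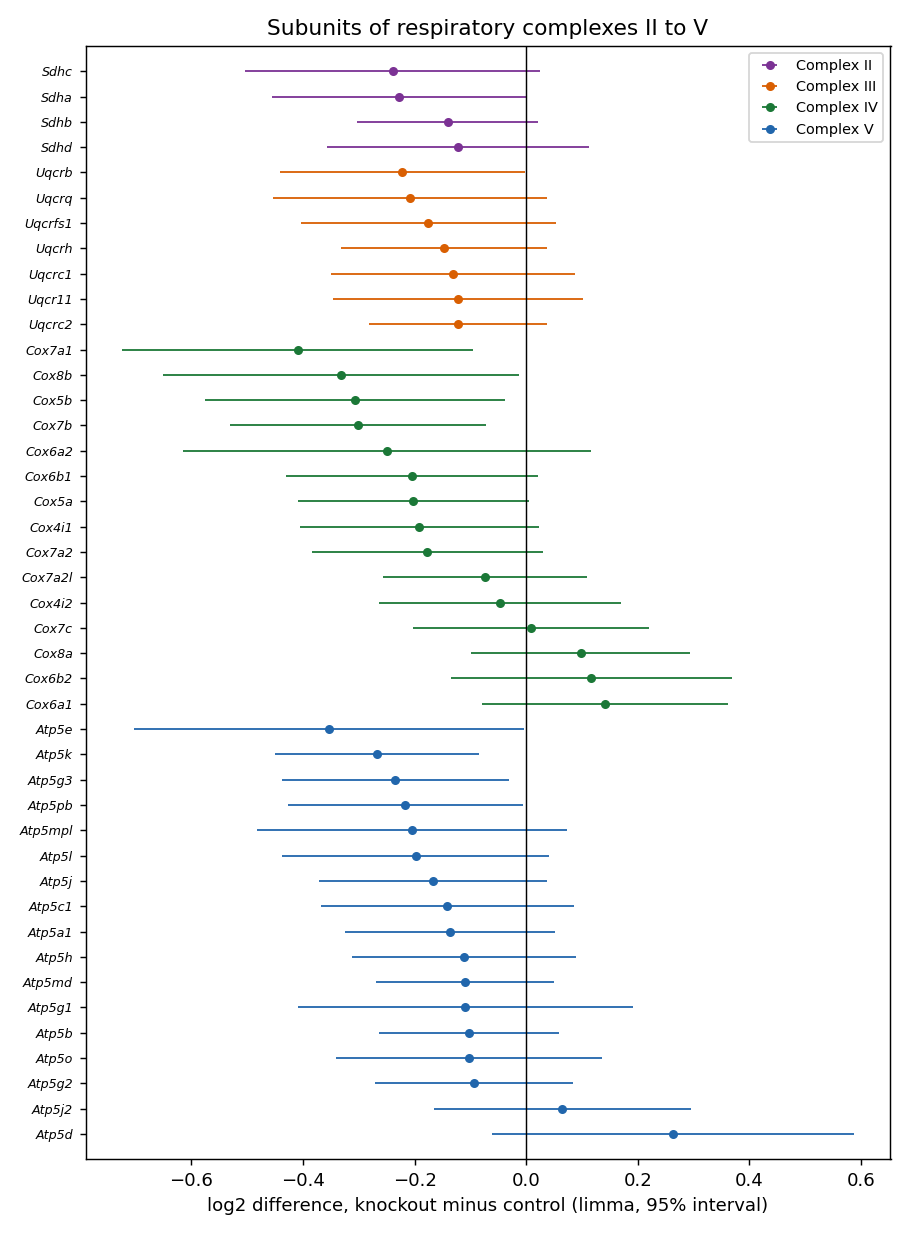
Log2 difference of each of the 43 tested subunit genes, knockout minus control hearts (x axis), with limma's 95% interval as a bar, coloured and grouped by complex. Of the points 37 lie left of 0, the lowest being Cox7a1 at -0.41 and the highest Atp5d at 0.26.

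The promoters below belong to genes described in the results, none of which passed the adjusted threshold. They are the heart and muscle isoforms Cox8b and Cox7a1 beside their widely expressed counterparts Cox8a and Cox7a2, and the ATP synthase genes Atp5k and Atp5g3. The last pair were lower in knockout hearts without overlap of the groups, as were 2.9% of all tested genes. Each runs from 250 bases before to 50 bases after the start of the gene, 5′ to 3′ in the gene's orientation, from RefSeq on build GRCm38.p6. Capitals mark matches, on either strand, to letters searched for factors known to control mitochondrial genes: AAGGTCA for the ERR receptors, GCGCANGCG for NRF-1, CCGGAAG for NRF-2 (GABP) and AAGATGGCG for YY1.
Cox8b, chr7:140900397-140900696, minus strand: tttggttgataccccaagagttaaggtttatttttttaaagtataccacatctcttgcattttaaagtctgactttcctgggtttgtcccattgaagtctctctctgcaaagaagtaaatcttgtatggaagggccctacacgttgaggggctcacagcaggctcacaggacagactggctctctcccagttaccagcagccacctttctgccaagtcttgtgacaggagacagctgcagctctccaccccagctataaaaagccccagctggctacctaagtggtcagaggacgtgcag
Cox8a, chr19:7217567-7217866, minus strand: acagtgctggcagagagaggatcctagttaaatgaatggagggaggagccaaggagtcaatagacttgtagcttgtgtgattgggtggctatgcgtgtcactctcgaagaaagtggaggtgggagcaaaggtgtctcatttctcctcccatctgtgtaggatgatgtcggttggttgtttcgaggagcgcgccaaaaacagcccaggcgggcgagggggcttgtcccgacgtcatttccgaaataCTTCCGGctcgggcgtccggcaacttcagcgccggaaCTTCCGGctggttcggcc
Cox7a1, chr7:30183921-30184220, plus strand: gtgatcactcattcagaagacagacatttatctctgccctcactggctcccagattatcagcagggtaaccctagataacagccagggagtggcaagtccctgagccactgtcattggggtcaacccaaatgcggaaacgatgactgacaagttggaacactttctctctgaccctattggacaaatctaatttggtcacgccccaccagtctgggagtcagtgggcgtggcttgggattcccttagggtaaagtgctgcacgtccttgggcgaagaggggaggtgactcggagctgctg
Cox7a2, chr9:79759804-79760103, minus strand: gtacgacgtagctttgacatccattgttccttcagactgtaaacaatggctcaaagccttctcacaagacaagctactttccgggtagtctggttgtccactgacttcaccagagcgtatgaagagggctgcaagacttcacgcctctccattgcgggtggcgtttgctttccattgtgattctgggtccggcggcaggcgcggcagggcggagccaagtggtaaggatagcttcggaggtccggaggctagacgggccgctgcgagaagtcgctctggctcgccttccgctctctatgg
Atp5k, chr5:108434350-108434649, minus strand: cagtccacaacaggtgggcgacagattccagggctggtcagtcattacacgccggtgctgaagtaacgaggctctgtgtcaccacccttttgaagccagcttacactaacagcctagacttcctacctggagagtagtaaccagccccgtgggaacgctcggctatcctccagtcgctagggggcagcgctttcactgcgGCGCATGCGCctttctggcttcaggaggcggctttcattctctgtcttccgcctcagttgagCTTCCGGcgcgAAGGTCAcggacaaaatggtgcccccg
Atp5g3, chr2:73911277-73911576, minus strand: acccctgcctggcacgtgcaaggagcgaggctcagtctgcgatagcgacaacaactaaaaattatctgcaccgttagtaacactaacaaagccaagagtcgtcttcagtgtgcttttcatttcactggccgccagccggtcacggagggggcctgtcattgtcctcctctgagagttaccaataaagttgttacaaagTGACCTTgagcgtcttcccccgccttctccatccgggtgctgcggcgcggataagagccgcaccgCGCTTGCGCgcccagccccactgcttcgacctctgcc
The window of Cox8a held 2 matches to the NRF-2 letters, and those of Cox8b, Cox7a1 and Cox7a2 held none of the searched letters. In Atp5k, 4 matches were found: 1 for ERR, 1 for NRF-2 and a pair for NRF-1 that overlap on opposite strands of 1 stretch. Atp5g3 held 1 ERR and 1 NRF-1 match.

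A promoter was listed for 34 of the tested members. The NRF-2 letters occurred in 13 of the 34 (38.2%), against 16.9% of 11675 tested genes with a listed promoter and 8.86% of all 32851 listed promoters. NRF-1 letters occurred in 12 (35.3%), against 13.1% of tested genes and 6.25% of all promoters. The ERR letters occurred in 5 (14.7%), against 4.01% of tested genes and 4.72% of all promoters, and these 5 were Sdhd, Atp5e, Atp5g3, Atp5k and Atp5l. YY1 letters occurred in Atp5j and Atp5j2 (5.88%), against 2.97% of tested genes and 1.4% of all promoters. A match describes the letters only and is not a binding site, and no test was made of these shares.

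In complex II all 4 subunit genes were lower on average in knockout hearts, with a median difference of -0.18, and none had an unadjusted p under 0.05. Sdha, the flavoprotein that oxidises succinate, had 10.81, 11.23, 11.19 and 10.97 in knockout hearts 1 to 4, against 11.16, 11.33, 11.31 and 11.31 in control hearts 1 to 4. Knockout hearts 1 and 4 lay below all controls, and hearts 2 and 3 lay within the control range. The means were 11.05 ± 0.19 and 11.28 ± 0.08 (SD, n = 4 each), and the difference of -0.23 ± 0.10 (SE) corresponds to 85.4% of the control signal, with an adjusted p of 0.445.

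Sdhb, the iron-sulfur subunit beside it, had 9.90, 10.06, 10.02 and 9.90 in knockout hearts, against 10.05, 10.16, 10.13 and 10.11 in control hearts. Its difference was -0.14 ± 0.07 (adjusted p = 0.489). Sdhc and Sdhd are the membrane anchors that hold the coenzyme Q site. Sdhc had 9.33, 9.76, 9.78 and 9.39 in knockout hearts, against 9.64, 9.88, 9.86 and 9.84 in control hearts, a difference of -0.24 ± 0.12 (adjusted p = 0.476). For Sdhd the values were 9.88, 10.31, 10.30 and 10.11 in knockout hearts, against 10.17, 10.31, 10.36 and 10.24 in control hearts, a difference of -0.12 ± 0.11 (adjusted p = 0.668). Knockout hearts 1 and 4 held the lowest signals for both anchors, and the groups overlapped. Without knockout replicate 1 the difference was -0.032 for Sdhd and -0.15 for Sdha.

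In complex III all 7 tested genes were lower on average in knockout hearts, between -0.22 and -0.12, with a median of -0.15. Of these, 1 gene (14.3%), Uqcrb, had an unadjusted limma p under 0.05, close to the 11.2% of all tested genes in either direction. Uqcrb, a small subunit near the coenzyme Q pocket, had 11.57, 11.93, 11.92 and 11.67 in knockout hearts, against 11.91, 12.05, 11.95 and 12.07 in control hearts. The difference was -0.22 ± 0.10, or 85.7% of the control signal (adjusted p = 0.444), and the highest knockout heart lay just above the lowest control. Uqcrq, another small subunit, had 5.24, 5.66, 5.56 and 5.24 in knockout hearts, against 5.51, 5.62, 5.70 and 5.70 in control hearts (-0.21 ± 0.11, adjusted p = 0.497).

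Uqcrfs1 encodes the Rieske iron-sulfur protein that hands electrons on towards cytochrome c. It had 7.03, 7.38, 7.31 and 7.00 in knockout hearts, against 7.24, 7.38, 7.42 and 7.37 in control hearts, a difference of -0.18 ± 0.10 (adjusted p = 0.526). Uqcrh, the hinge protein beside cytochrome c1, had 8.64, 8.78, 8.69 and 8.49 in knockout hearts, against 8.72, 8.87, 8.85 and 8.75 in control hearts (-0.15 ± 0.08, adjusted p = 0.514). In these small and iron-sulfur subunits hearts 1 and 4 were again the lowest of the knockout group, and without knockout replicate 4 the difference was -0.11 for Uqcrfs1 and -0.094 for Uqcrh. The core proteins differed by -0.13 ± 0.10 (Uqcrc1) and -0.12 ± 0.07 (Uqcrc2), and the small subunit Uqcr11 by -0.12 ± 0.10. Cyc1, the cytochrome c1 of this complex, falls outside the symbol rule and differed by -0.19 ± 0.10.

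In complex IV, 11 genes were lower and 4 higher on average in knockout hearts, with a median of -0.19 and a range from -0.41 to 0.14. Those with an unadjusted limma p under 0.05 were Cox7b, Cox7a1, Cox5b and Cox8b, all lower. They were 26.7% of the tested genes of complex IV, beside 11.2% of all tested genes in either direction. Cox7a1, the heart and skeletal muscle form of subunit VIIa, had 10.73, 11.26, 11.31 and 10.76 in knockout hearts, against 11.30, 11.47, 11.47 and 11.47 in control hearts. It had the lowest difference of all members, -0.41 ± 0.14 with a 95% interval from -0.72 to -0.10, or 75.3% of the control signal (adjusted p = 0.421). Knockout heart 3 lay just above control heart 1, so the groups overlapped by that pair. Cox8b, the heart and muscle form of subunit VIII in the mouse, had 10.45, 11.06, 11.04 and 10.52 in knockout hearts, against 11.06, 11.05, 11.11 and 11.18 in control hearts. The difference was -0.33 ± 0.14, or 79.5% of the control signal (adjusted p = 0.442), and knockout hearts 2 and 3 lay at the lower end of the controls while hearts 1 and 4 lay far below them.

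Cox6a2, the third striated muscle isoform gene, had 11.18, 11.92, 11.86 and 11.38 in knockout hearts, against 11.69, 11.72, 11.96 and 11.98 in control hearts. Its difference of -0.25 ± 0.16 (adjusted p = 0.569) had the same pattern of hearts but a wider error. The widely expressed counterparts of these isoforms differed in sign. Cox8a had 10.50, 10.23, 10.21 and 10.13 in knockout hearts, against 10.15, 10.17, 10.18 and 10.18 in control hearts (0.10 ± 0.09, adjusted p = 0.685). Cox6a1 had 11.35, 10.95, 11.17 and 10.97 in knockout hearts, against 10.92, 10.90, 11.04 and 11.02 in control hearts (0.14 ± 0.10, adjusted p = 0.596). For both genes knockout heart 1 was the highest of all 8 hearts. Cox7a2 had 9.72, 9.87, 9.81 and 9.49 in knockout hearts, against 9.99, 9.86, 9.87 and 9.87 in control hearts (-0.18 ± 0.09, adjusted p = 0.492), and its difference was -0.10 without knockout replicate 4. Without knockout replicate 1 the difference was -0.11 for Cox6a2, 0.020 for Cox8a and 0.061 for Cox6a1.

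Because members of each isoform pair replace one another in the enzyme, their within-heart log2 differences were compared between the groups. Such a difference is set by the probes as well as the RNA, so only its change between groups is read. Cox8b minus Cox8a was -0.05, 0.82, 0.84 and 0.39 in knockout hearts, against 0.90, 0.88, 0.93 and 1.00 in control hearts. All 4 knockout hearts lay below all 4 controls, with means of 0.50 ± 0.42 and 0.93 ± 0.05 (SD, n = 4 each). The difference of -0.43 ± 0.21 (SE) had an exact two-sided permutation p of 0.0286, the smallest possible, and 0.0857 after adjustment over the 3 pairs. It was -0.25 without knockout replicate 1.

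Cox6a2 minus Cox6a1 was -0.17, 0.97, 0.69 and 0.41 in knockout hearts, against 0.77, 0.82, 0.92 and 0.96 in control hearts. The difference was -0.39 ± 0.25 (exact permutation p = 0.171, adjusted 0.171) and -0.18 without knockout replicate 1, and knockout heart 2 was the highest of all. Cox7a1 minus Cox7a2 was 1.01, 1.40, 1.50 and 1.27 in knockout hearts, against 1.30, 1.61, 1.60 and 1.60 in control hearts. That difference was -0.23 ± 0.13 (exact permutation p = 0.114, adjusted 0.171) and -0.14 without knockout replicate 1. All 3 within-heart differences were thus lower on average in knockout hearts, and none passed the adjusted threshold. A pair at the smallest possible exact permutation p of 0.0286 reaches only 0.0857 after adjustment unless another pair has that p too. The adjusted threshold was therefore out of reach for Cox8b minus Cox8a alone.

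**Figure D2:**
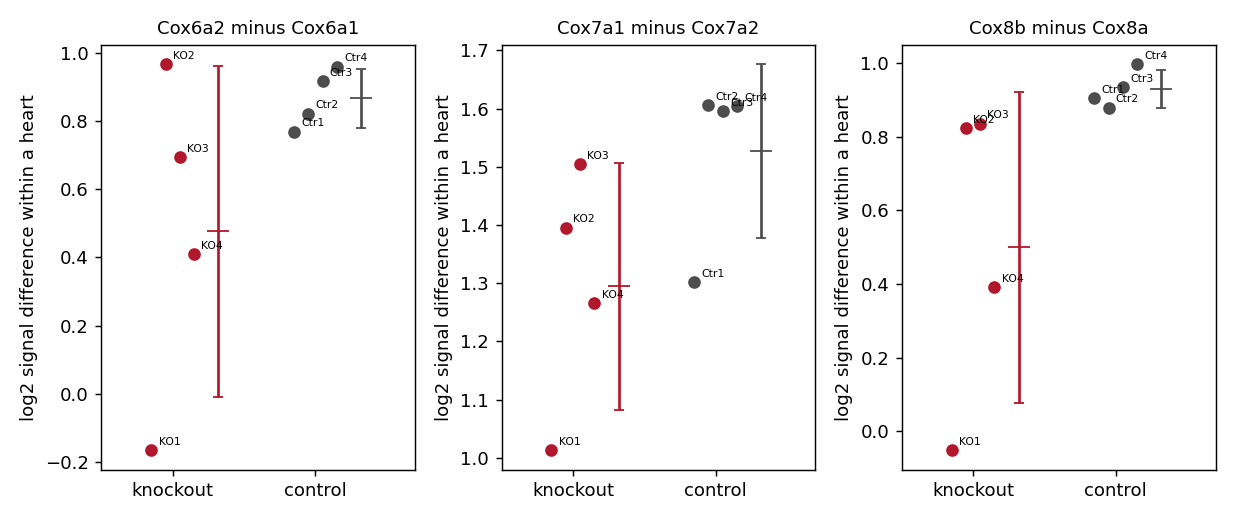
Within-heart log2 signal difference (y axis) between the striated muscle and the widely expressed isoform gene of 3 complex IV subunits, in 4 knockout hearts (left) and 4 control hearts (right), with mean and SD as bars. Knockout heart 1 is the lowest point in each panel, and for Cox8b minus Cox8a every knockout point lies below the lowest control at 0.88.

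Of the remaining complex IV genes, Cox7b, the widely expressed form of a small membrane subunit, had 9.76, 9.93, 9.98 and 9.63 in knockout hearts, against 10.25, 10.20, 9.93 and 10.14 in control hearts. The difference was -0.30 ± 0.10 (81.1% of the control signal, adjusted p = 0.421). Its much dimmer second probe set (mean 5.22) differed by -0.35 but ordered the hearts otherwise. There knockout heart 3 was the lowest (4.74) and heart 4 the highest of the knockout group (5.29). Cox5b, a subunit on the matrix side, had 9.84, 10.33, 10.10 and 9.84 in knockout hearts, against 10.19, 10.41, 10.27 and 10.47 in control hearts. Its difference was -0.31 ± 0.12 (80.8% of the control signal, adjusted p = 0.421), and -0.28 on its much dimmer second probe set (mean 4.67). On the brighter probe set of both genes knockout hearts 1 and 4 were the lowest of the 8.

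Cox4i1, the common form of the largest nuclear subunit, had 10.11, 10.46, 10.36 and 10.09 in knockout hearts, against 10.38, 10.45, 10.48 and 10.48 in control hearts (-0.19 ± 0.10, adjusted p = 0.479). Cox4i2, the form known from lung and from low oxygen, had 5.19, 5.51, 5.16 and 5.11 in knockout hearts, against 5.24, 5.30, 5.25 and 5.37 in control hearts (-0.05 ± 0.10, adjusted p = 0.880), and single hearts left out moved its difference between -0.14 (without knockout replicate 2) and -0.00 (without knockout replicate 4). Cox5a and Cox6b1 each differed by -0.20, with SEs of 0.09 and 0.10. Cox7a2l differed by -0.07 ± 0.08. Cox7c (0.01 ± 0.10) and Cox6b2, a form known from testis (0.12 ± 0.11), were the other genes above 0. Cox6b2 was dim, with means of 4.03 in knockout hearts and 3.91 in control hearts. Ndufa4, now counted with complex IV but outside the symbol rule, differed by -0.10 ± 0.08.

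In complex V, 15 of 17 tested genes were lower on average in knockout hearts, with a median of -0.14 that was -0.09 without knockout replicate 1. Those with an unadjusted limma p under 0.05 were Atp5k, Atp5g3, Atp5pb and Atp5e, all lower. They were 23.5% of the tested genes of complex V, beside 11.2% of all tested genes in either direction. Atp5k encodes subunit e, which helps ATP synthase form dimers in the membrane. It had 8.52, 8.75, 8.64 and 8.48 in knockout hearts, against 8.79, 8.84, 8.91 and 8.92 in control hearts. The groups did not overlap, and the difference of -0.27 ± 0.08, with a 95% interval from -0.45 to -0.08 or 83.1% of the control signal, had the smallest unadjusted p of all members (0.00861, adjusted p = 0.421, limma).

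The rotor ring of subunit c is encoded by 3 genes that give the same mature protein. Atp5g3 had 9.62, 9.90, 9.89 and 9.63 in knockout hearts, against 9.91, 10.01, 10.09 and 9.96 in control hearts. Its groups did not overlap either, by a margin of knockout hearts 2 and 3 just under control heart 1, and the difference was -0.23 ± 0.09 (85.0% of the control signal, adjusted p = 0.421). Of the 43 tested members only Atp5k and Atp5g3 were lower without overlap, while 2.9% of all tested genes were. Atp5g1 had 6.04, 6.47, 6.70 and 6.23 in knockout hearts, against 6.61, 6.50, 6.34 and 6.44 in control hearts (-0.11 ± 0.13, adjusted p = 0.782). Atp5g2 had 10.60, 10.72, 10.65 and 10.46 in knockout hearts, against 10.63, 10.68, 10.71 and 10.79 in control hearts (-0.09 ± 0.08, adjusted p = 0.663). For these other rotor genes the groups overlapped widely, and single hearts left out moved Atp5g1 between -0.22 (without knockout replicate 3) and -0.00 (without knockout replicate 1), and Atp5g2 to -0.044 without knockout replicate 4.

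Atp5pb, subunit b of the peripheral stalk that keeps the catalytic head from turning, had 10.58, 10.90, 10.77 and 10.58 in knockout hearts, against 10.78, 10.99, 10.93 and 10.98 in control hearts. It differed by -0.22 ± 0.09 (86.1% of the control signal, adjusted p = 0.444). Atp5e, the epsilon subunit of the central stalk, had 8.53, 9.33, 9.11 and 8.70 in knockout hearts, against 9.33, 9.19, 9.24 and 9.33 in control hearts. Its difference of -0.35 ± 0.16 (78.3% of the control signal, adjusted p = 0.444) was -0.22 without knockout replicate 1, and its dimmer second probe set differed by -0.04. Atp5d, the delta subunit next to it, had the highest difference of all members: 8.99, 9.10, 9.18 and 8.52 in knockout hearts, against 8.74, 8.44, 8.81 and 8.75 in control hearts (0.26 ± 0.15, adjusted p = 0.508). Its second probe set differed by 0.03. The 2 central stalk genes at either end of the range of complex V thus both take their values from the brighter of 2 probe sets that disagree.

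The catalytic head genes differed by -0.14 ± 0.08 (Atp5a1, alpha) and -0.10 ± 0.07 (Atp5b, beta), and the gamma shaft gene Atp5c1 by -0.14 ± 0.10. Stalk genes differed by -0.17 ± 0.09 (Atp5j), -0.11 ± 0.09 (Atp5h) and -0.10 ± 0.11 (Atp5o). Among the small membrane subunits, Atp5l and Atp5mpl each differed by -0.20, with SEs of 0.11 and 0.12, Atp5md by -0.11 ± 0.07 and Atp5j2 by 0.06 ± 0.10. The inhibitor gene Atpif1, whose protein blocks ATP hydrolysis by complex V, lies outside the symbol rule and differed by 0.15 ± 0.08. By place in the enzyme the medians were -0.14 for the head with its central stalk, -0.11 for the rotor ring, -0.14 for the peripheral stalk and -0.20 for the small membrane subunits.

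**Figure D3:**
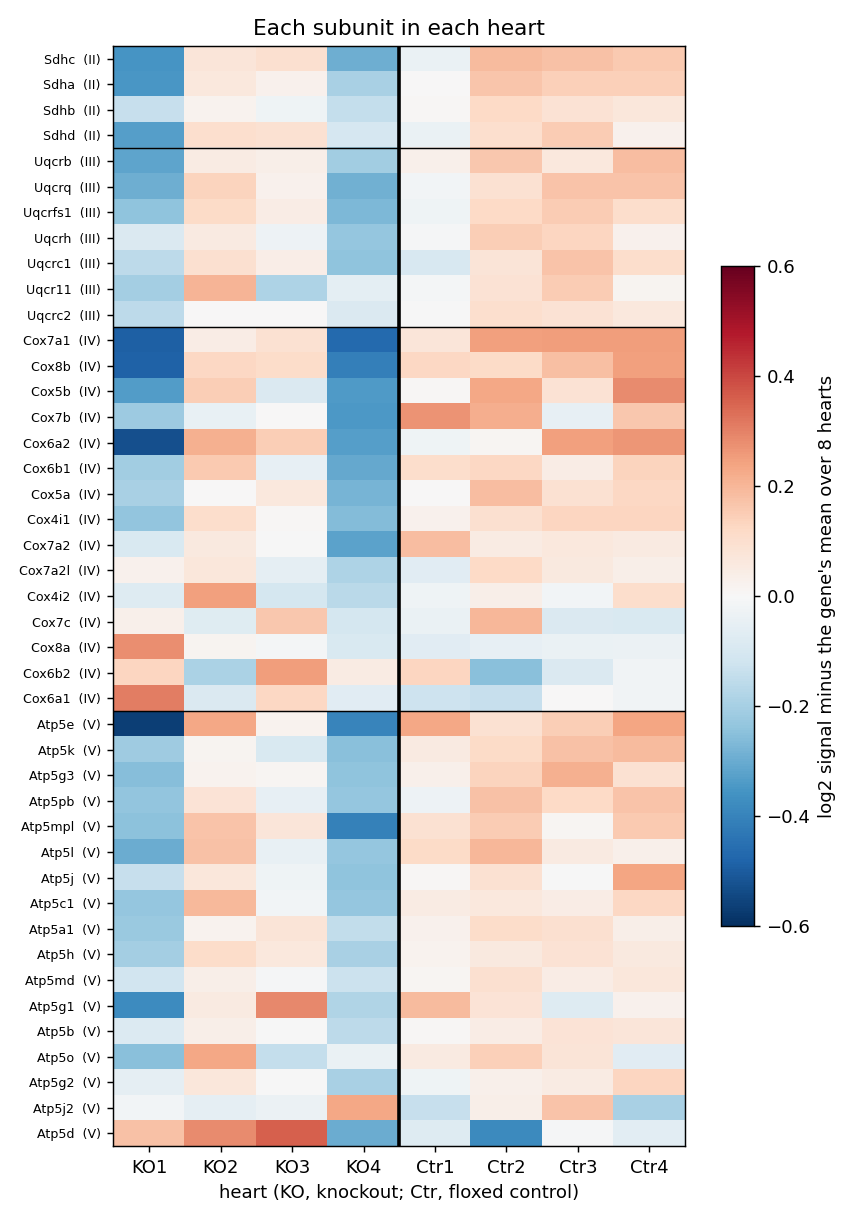
Log2 signal of each tested subunit gene (rows, by complex) in each heart (columns, knockout hearts 1 to 4 left of the line and control hearts 1 to 4 right of it), as the deviation from that gene's mean over the 8 hearts. Most rows are darkest blue in knockout hearts 1 and 4, which were the lowest pair in 33 of the 43 rows.

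Within the knockout group the members split by heart in the same way in every complex. Knockout heart 1 or 4 was the lowest of all 8 hearts for 39 of the 43 members (19 and 20), and together they were the lowest pair for 33, or 76.7%, against 12.9% of all tested genes. The median deviation of the 43 members from their gene means was -0.21, 0.07, 0.01 and -0.23 in knockout hearts 1 to 4, against 0.01, 0.10, 0.09 and 0.10 in control hearts 1 to 4. Knockout hearts 2 and 3 thus lay in or near the control range. The SD was larger in the knockout group for 41 of 43 members (95.3%), against 61.3% of all tested genes. Its median over the members was 0.182 in knockout hearts and 0.0756 in control hearts, and over all tested genes 0.150 in knockout hearts and 0.124 in control hearts.

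By complex, the median deviation in knockout hearts 1 to 4 was -0.34, 0.07, 0.06 and -0.17 for complex II, against -0.02, 0.14, 0.15 and 0.11 in control hearts. For complex III it was -0.21, 0.09, 0.03 and -0.23 in knockout hearts, against -0.01, 0.10, 0.15 and 0.11 in control hearts. Complex IV had -0.19, 0.06, 0.01 and -0.28 in knockout hearts, against 0.01, 0.11, 0.06 and 0.13 in control hearts. Heart 4 was thus the lower of that pair for complex IV and heart 1 for complex II. Complex V had -0.22, 0.07, -0.00 and -0.23 in knockout hearts, against 0.03, 0.09, 0.08 and 0.07 in control hearts. Without knockout replicates 1 and 4 together the median difference over the members was -0.03, and 30 of 43 were lower (69.8%, against 48.6% of all genes tested). At an unadjusted limma p under 0.05 there was 1 member, Atp5d, which was higher, beside 4.12% of all genes tested. The hearts left out were the lowest pair for most members, so their removal raises most differences by construction.

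Knockout hearts 1 and 4 were also the lowest pair for cardiomyocyte and endothelial markers and for Ckm. They were the highest pair for fibroblast markers and for smooth muscle and pericyte markers. Macrophage, atrial and brown adipocyte markers did not follow that order of hearts. The 12 ventricular cardiomyocyte markers had median deviations of -0.21, 0.06, -0.00 and -0.11 in knockout hearts, against 0.04, 0.07, 0.07 and 0.09 in control hearts, and 9 of 12 were lower. Those higher were Myh7 (0.35), Mybpc3 (0.05) and Tnnt2 (0.03), and Actc1 differed by only -0.05. Beside these counts by list, 48.8% of all tested genes were lower. The 8 fibroblast markers had 0.47, 0.13, -0.25 and 0.35 in knockout hearts, against 0.28, -0.32, -0.49 and -0.15 in control hearts, and 7 of 8 were higher. They were uneven: Tcf21 (0.55), Col3a1 (0.62), Col1a1 (0.85) and Col1a2 (0.88) differed most. Lum (0.19), Pdgfra (0.09), Dpt (0.06) and Dcn (-0.04) differed little. The 6 activated fibroblast markers had 0.48, 0.12, -0.15 and 0.69 in knockout hearts, against 0.33, -0.51, -0.65 and -0.51 in control hearts, and 5 of 6 were higher. Knockout hearts 1 and 4, the lowest for the respiratory genes, were thus the highest for both fibroblast lists. Macrophage markers had 0.25, -0.09, 0.20 and -0.05 in knockout hearts, against 0.08, -0.16, -0.27 and 0.02 in control hearts, with 5 of 6 higher. The 4 tested atrial markers had -0.41, 2.37, -0.45 and -0.21 in knockout hearts, against 0.05, -0.49, -0.35 and -0.44 in control hearts, with a median difference of 0.66 and knockout heart 2 far above all others. The endothelial markers had a median difference of -0.03 with 5 of 6 lower, the smooth muscle and pericyte markers -0.04 with 3 of 5 lower, and the brown adipocyte markers 0.07 with 2 of 3 higher. Endothelial median deviations were -0.24, 0.24, -0.02 and -0.11 in knockout hearts, against 0.15, 0.08, -0.06 and -0.02 in control hearts. For smooth muscle and pericyte markers they were 0.28, 0.04, -0.10 and 0.14 in knockout hearts, against 0.08, -0.09, -0.01 and 0.07 in control hearts. Brown adipocyte markers had -0.14, 0.24, 0.07 and 0.08 in knockout hearts, against -0.05, 0.02, -0.01 and 0.01 in control hearts. Of the skeletal muscle list only Ckm, which heart muscle also expresses, was tested (-0.53 ± 0.21). Its deviations were -0.78, 0.21, 0.14 and -0.63 in knockout hearts, against 0.08, 0.34, 0.35 and 0.30 in control hearts. The brown adipocyte markers Ucp1 and Adipoq and the skeletal muscle markers Actn3, Myh1, Myh4 and Mylpf were too dim to be tested. The part of the makeup of the tissue in the respiratory gene values was not tested.

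**Figure D4:**
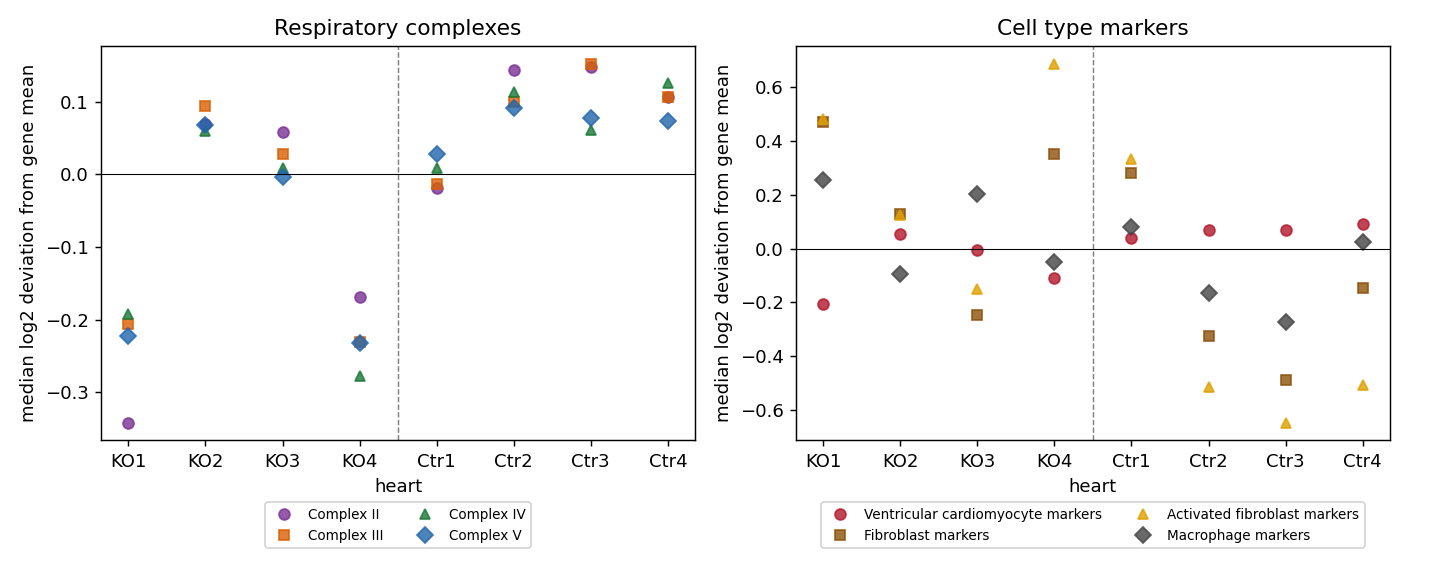
Median log2 deviation from the gene means (y axes) in each heart (x axes), for the tested genes of complexes II to V (left panel) and for marker genes of 4 cell types (right panel), with knockout hearts left of the dashed line. Knockout hearts 1 and 4 lie at -0.17 or below for every complex and at 0.35 or above for both fibroblast lists.

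The rest of the chain was described in the same way, beside all tested genes. Of all tested genes 48.8% were lower on average in knockout hearts. At an unadjusted limma p under 0.05, 5.61% of them were lower and 5.64% higher. Of 33 complex I genes (Nduf symbols without Ndufa4 and the assembly factors) 31 were lower on average in knockout hearts, with a median of -0.19, and 11 were lower and 0 higher at an unadjusted p under 0.05. Their median deviation was -0.24, 0.08, 0.03 and -0.28 in knockout hearts, against 0.01, 0.13, 0.15 and 0.16 in control hearts. Knockout hearts 1 and 4 were the lowest pair for 81.8% of them, beside 76.7% of the members of complexes II to V, so complex I showed the same split by heart. Of 33 tested assembly factors of complexes II to V, 26 were lower and 7 higher (median -0.09), and 7 were lower and 1 higher at that p. They included Taco1 (-0.37 ± 0.13), a translational activator of the mitochondrial COX1 message, and Atpaf1 (-0.27 ± 0.11), which assembles the ATP synthase head, while Coa4 was higher (0.22 ± 0.09).

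The genes for cytochrome c and coenzyme Q, the mobile carriers between the complexes, had a median of -0.23, with 12 of 14 lower (48.8% of all tested genes). At an unadjusted limma p under 0.05, 6 were lower and 1 higher, against 5.61% and 5.64% of all tested genes. The smallest p-values belonged to Pdss2 (-0.34 ± 0.10), which helps build the coenzyme Q side chain, Coq10b (0.28 ± 0.09), a coenzyme Q binding protein, and Hccs (-0.30 ± 0.12), which attaches haem to cytochromes c and c1. None of these genes passed the adjusted threshold. Knockout hearts 1 and 4 again had the lowest median deviations, -0.21 and -0.25 for the carrier genes and -0.13 and -0.16 for the assembly factors.

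**Figure D5:**
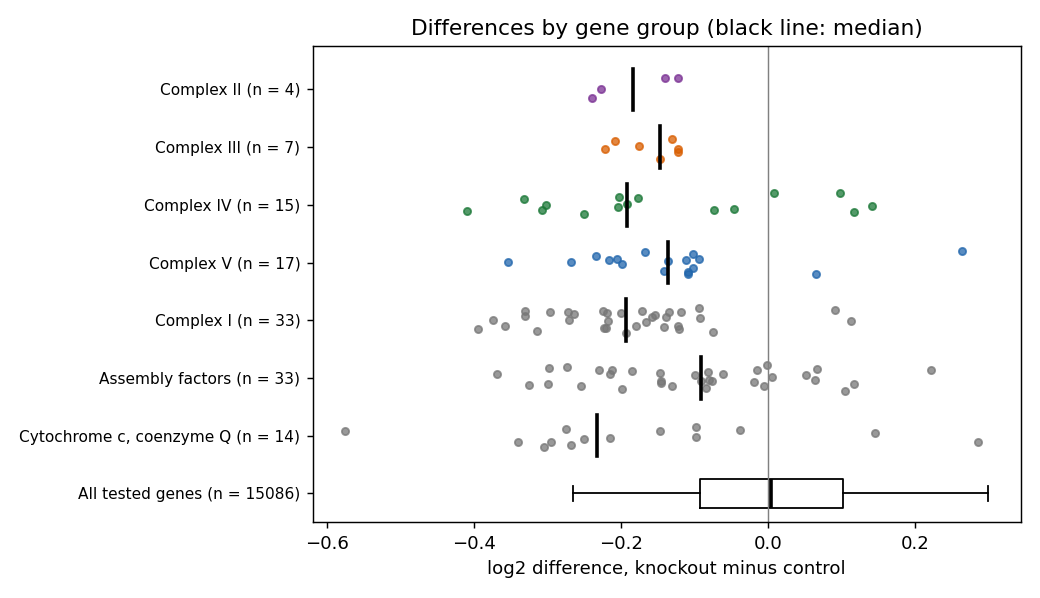
Log2 difference of each gene, knockout minus control hearts (x axis), by gene group (points, with the median as a black line), beside all 15086 tested genes as a box plot whose box holds the middle of the distribution between quartiles and whose whiskers run from the 5th to the 95th percentile. The medians of complexes II to V lie at -0.18, -0.15, -0.19 and -0.14, against 0.00 for all tested genes.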

How the data were processed

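Total RNA was biotin-labelled and hybridised to 8 arrays, for which the authors deposited 41345 log2 signals each. The submitters' processing notes name RMA and limma and give no versions. RMA corrects background, sets all arrays to a shared distribution and summarises probes, so it would hide a change common to all genes and can compress bright signals. Of the tested members, 12 had means above 10.73, among the brightest genes. The sources used here give no probe positions and no build for the array.

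Per gene, the brightest probe set with 1 symbol was kept (6 members had another). Genes whose mean reached 3.80, below which 40% of probe set means lie, were tested over the whole table with limma 3.58.1 (lmFit and eBayes) in R 4.3.3, adjusted by Benjamini-Hochberg at a threshold of 0.05. The script was tested on simulated data. Isoform differences were compared by exact permutation over all 70 assignments of hearts, two-sided. The members, gene lists and tests were chosen with earlier results of these data known. Values in every heart are given for complex II, the complex IV isoform genes, the subunit c genes and the 4 members with the smallest p in each of complexes III, IV and V. Of the assembly factor list and the carrier list, the 3 genes with the smallest p are named.

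Alternatives were the filter, the scaling between arrays, the choice of probe set, limma's settings, a replicate block and leaving out hearts. The deviations of arrays with the same replicate number in both groups correlated at 0.36, 0.01, 0.28 and -0.03. Arrays with different numbers were not compared in this way, so these values do not settle whether the numbers mark pairs. The main fit did not take them as pairs.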

Additional observations from a re-analysis of the deposited data

Results flagged for a closer look

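Within groups of 4 hearts, 7 of 102 groups of values held a heart whose gap to its nearest neighbour was a larger share of the group's whole range than Dixon's test allows, and chance gives about 1 in 20 such groups. Control heart 1 stood apart in 5 of the 7. It was the lowest control for Sdha (11.16 against 11.31 to 11.33, gap 0.845 of the range), for Sdhc (9.64 against 9.84 to 9.88, gap 0.858) and for Cox7a1 (11.30 against 11.47, gap 0.986). It was the highest control for Cox7a2 (9.99 against 9.86 to 9.87, gap 0.898), and so the lowest for the within-heart difference Cox7a1 minus Cox7a2 (1.30 against at most 1.61 in the others, gap 0.964). Control heart 2 was the highest control for Cox7c (5.59 against 5.30 to 5.35, gap 0.83). Knockout heart 4 was the highest knockout heart for Atp5j2 (4.35 against 4.07 to 4.11, gap 0.867).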

How the results depend on the processing

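No setting gave a call for any tested gene after adjustment. With every alternative that kept all hearts, 37 of 43 members were lower in knockout hearts, except 39 of 47 with no filter and 37 of 41 at the 60th percentile, and 37 or 38 of 43 with any single heart left out. The count of members at an unadjusted limma p under 0.05 (9) was 14 with array weights, ran from 3 to 24 with single hearts left out, and was 1 without knockout replicates 1 and 4 together. The share of all tested genes at that p, 11.2% in the main fit, was 13.8%, from 6.54% to 15.8%, and 4.12% in these settings. Knockout hearts 1 and 4 were the lowest pair for most members, so leaving them out raises most differences by construction. Without that pair of hearts the median difference was -0.034 over all members, -0.038 for complex IV and -0.019 for complex V, Cox8b minus Cox8a was -0.10 (exact permutation p = 0.133, and 15 assignments cannot reach 0.05), and Atp5g1 (0.12), Cox4i2 (0.048), Cox6a2 (0.055) and Sdhd (0.034) changed sign, as did Uqcrc1 (0.0018), Atp5c1 (0.020), Atp5h (0.031), Atp5mpl (0.020) and Atp5j2 (-0.012). With the replicate block, Cox8b minus Cox8a was -0.43 with an exact permutation p of 0.125, the smallest that 16 within-pair assignments allow. In that setting 10 members had an unadjusted limma p under 0.05, beside 14.4% of all tested genes. Leaving out single hearts moved Cox8b minus Cox8a between -0.54 and -0.25, and Cox6a2 minus Cox6a1 between -0.55 and -0.18. The exact permutation p of Cox8b minus Cox8a was 0.0286 with any single knockout heart left out. It was 0.143 without control replicate 1, 2 or 3 and 0.171 without control replicate 4. For Cox6a2 minus Cox6a1 that p was 0.0286 without knockout replicate 2 and above 0.05 with any other single heart left out. The causes were not tested. Isoform differences have no value under array weights or limma's trend and robust settings. The median of all genes stayed within 0.01 of 0 under every setting. Low signal limits what the arrays show for dim members. Cox6b2 (mean 3.97) and Atp5j2 (4.12), both higher on average in knockout hearts, lay near the filter, and Cox7b2 lay well below it.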
